A study of Mus musculus with 4 samples.

Results

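Dual specificity MAP kinase phosphatases switch off MAP kinase signalling, and 9 of their genes were examined in splenic CD4+ T cells of mice labelled wild type or *Satb1* conditional knockout. The genes were listed by symbol, as *Dusp1*, *Dusp2*, *Dusp4*, *Dusp5*, *Dusp6*, *Dusp7*, *Dusp10*, *Dusp16* and *Dusp22*, and each symbol was found in the count tables, 9 of 55367 gene symbols. RNA had been sequenced from sorted CD4+ T cells of the spleens of C57BL/6 mice, in 2 libraries from wild-type animals by label (WT) and 2 from *Satb1* conditional knockouts by label (cKO). In the study's model, floxed *Satb1* alleles (*Satb1* F/F) are deleted by *Thpok-cre*, a Cre driven in cells committed to the CD4 lineage, so that conventional and regulatory T (Treg) cells both lose SATB1, a nuclear protein that folds chromatin. The labels name neither the Cre nor the floxed alleles sample by sample, and do not say whether the WT mice carried either of them. The labels give no treatment, and neither sex nor age for these mice. The study's methods describe adult mice of mixed sexes. The comparison asks which of these phosphatase transcripts differ with the genotype label.

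MAP kinases (ERK, JNK and p38) are activated when a threonine and a tyrosine in their activation loop are phosphorylated, and a dual specificity phosphatase removes both phosphates. In T cells, ERK is activated downstream of the T cell receptor through Ras, RAF and MAP kinase kinases. Several of the phosphatases are themselves transcribed in response to ERK activity and so act as negative feedback. *Dusp1*, *Dusp2*, *Dusp4* and *Dusp5* encode nuclear, inducible enzymes, *Dusp6* and *Dusp7* cytoplasmic enzymes selective for ERK, *Dusp10* and *Dusp16* enzymes that act on JNK and p38, and *Dusp22* an atypical enzyme that lacks the kinase-binding domain.

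What the family shares is its catalytic loop, in which a histidine and the catalytic cysteine are followed by 5 residues and then an arginine that holds the phosphate. The loop was found once in the longest coding transcript of each of the 9 genes in GENCODE M21 (GRCm38). Its 24 bases of coding sequence are shown 5′ to 3′, with the codons of the cysteine and the arginine in capitals.
*Dusp1*: catTGCcaggccggcatctccCGG
*Dusp2*: cacTGCcaagctggcatctctCGC
*Dusp4*: cacTGCcaggccggcatctccCGA
*Dusp5*: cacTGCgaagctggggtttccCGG
*Dusp6*: catTGCttggcaggtatcagcCGC
*Dusp7*: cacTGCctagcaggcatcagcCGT
*Dusp10*: cacTGCcaggccggcgtgtccCGA
*Dusp16*: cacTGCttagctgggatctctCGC
*Dusp22*: catTGCctggctggggtctccAGG

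*Dusp1* and *Dusp4* shared 22 of the 24 bases, as did *Dusp4* and *Dusp10*, whereas *Dusp5* and *Dusp6* shared 13. The shared bases did not follow the roles, with 15 for *Dusp10* and *Dusp16*, 19 for *Dusp6* and *Dusp7* and 21 for *Dusp2* and *Dusp16*. The count includes bases that leave the residue unchanged, and it does not measure how related the proteins are. The cysteine was residue 258 of 367 in the *Dusp1* product, 334 of 422 in that of *Dusp7*, 244 of 660 in that of *Dusp16* and 88 of 205 in that of *Dusp22*. *Dusp16* encoded the longest of the 9 proteins and *Dusp22* the shortest.

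The 9 genes lie apart from each other in the genome (GRCm38, GENCODE M21), and each is annotated as protein coding. The nuclear members are *Dusp1* on chr17:26505590-26562128, minus strand, *Dusp2* on chr2:127336159-127338376, plus strand, *Dusp4* on chr8:34807297-34819894, plus strand, and *Dusp5* on chr19:53529109-53542431, plus strand. The cytoplasmic members are *Dusp6* on chr10:99263231-99267489 and *Dusp7* on chr9:106368632-106375724, both on the plus strand. *Dusp10* lies on chr1:184013302-184075636, plus strand, *Dusp16* on chr6:134715468-134792625, minus strand, and *Dusp22* on chr13:30659999-30711231, plus strand.

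The sequence before the transcription start was read from RefSeq (GRCm38.p6) for 8 of the 9 genes. For 4 of them the 150 bases before the start are shown: *Dusp1* and *Dusp5*, whose windows hold matches to sites of signal-responsive factors, and *Dusp7* and *Dusp16*, which differed most between the genotypes. Capitals mark exact matches in either strand to a searched motif, and the start is that of RefSeq, which can lie inside the GENCODE gene.
*Dusp1*, chr17:26508473-26508622, minus strand: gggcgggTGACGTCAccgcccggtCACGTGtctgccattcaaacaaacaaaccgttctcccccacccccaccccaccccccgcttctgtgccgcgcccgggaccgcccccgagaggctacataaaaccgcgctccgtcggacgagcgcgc
*Dusp5*, chr19:53528995-53529144, plus strand: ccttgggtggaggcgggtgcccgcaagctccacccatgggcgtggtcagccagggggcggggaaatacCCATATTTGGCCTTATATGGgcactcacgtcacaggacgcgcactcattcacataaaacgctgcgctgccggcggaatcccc
*Dusp7*, chr9:106368482-106368631, plus strand: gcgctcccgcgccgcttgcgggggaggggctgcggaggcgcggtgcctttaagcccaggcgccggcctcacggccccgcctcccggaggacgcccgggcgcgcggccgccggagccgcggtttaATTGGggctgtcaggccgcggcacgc
*Dusp16*, chr6:134792629-134792778, minus strand: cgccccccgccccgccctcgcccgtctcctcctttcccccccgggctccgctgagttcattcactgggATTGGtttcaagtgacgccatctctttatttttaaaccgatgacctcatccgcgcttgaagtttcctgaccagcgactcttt

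*Dusp1* held a cAMP response element, TGACGTCA, 143 bases before its start, and an E-box, CACGTG, 126 bases before it. In *Dusp5* a pair of CArG boxes, the sequence bound by serum response factor (CC, then 6 bases that are each A or T, then GG), began 82 and 72 bases before the start. A window of 300 bases, 250 before to 50 after the start, held the cAMP response element in 1.79% of 32851 promoters in the RefSeq table, the CArG box in 1.63% and the E-box in 7.15%. The E-box was also present in *Dusp2*. The CCAAT box, found in 37.4% of promoters, was present in *Dusp6*, *Dusp7*, *Dusp10* and *Dusp16*. The letters TGACTCA, GCGTGGGCG and TATAAA were found in none of the 8 windows, beside 5.2%, 0.612% and 13.6% of promoters. The CArG box was added to the search after the windows had been read. These matches describe the sequence and were not tied to the expression values.

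Library depth ranged from 4495902 to 6555699 gene counts. *Cd4* lay between 1180 and 1280 CPM (library-scaled counts, with TMM factors) and *Cd8a* between 4.25 and 6.86 CPM in the 4 libraries. *Cd8b1*, the other CD8 chain gene, fell from 42.4 and 52.0 CPM in WT to 27.4 and 22.5 CPM in cKO (log2 fold change -0.91, edgeR adjusted p = 0.0201). *Satb1* itself did not separate the labels, with 868 and 984 CPM in WT against 945 and 847 CPM in cKO (log2 fold change -0.05, edgeR adjusted p = 0.877), so each direction given here follows the label. The count covers the whole gene, and the deleted exons are not given in the sources used here, so it does not test whether part of the gene was deleted. *Foxp3*, the Treg transcription factor gene, had 142 and 121 CPM in the libraries labelled WT and 405 and 547 CPM in those labelled cKO (log2 fold change 1.86, edgeR adjusted p = 0.000447). *Xist*, transcribed from the inactive X chromosome, was counted 5447 and 4235 times in WT against 9 and 6 times in cKO, while the Y-linked *Ddx3y* was counted 0 times in either WT library against 525 and 597 times in cKO. Genotype and this sex-linked pattern therefore cannot be told apart in any comparison below.

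By edgeR's quasi-likelihood test, with an adjusted p under 0.05 as the threshold, 0 of the 9 phosphatase genes were called, where 4.30% of all 12403 tested genes were. All 9 genes passed the low-count filter and were tested. *Dusp16* and *Dusp7* came closest, and had the highest log2 fold changes of the 9. At an unadjusted p under 0.05 there were 4 genes, *Dusp2*, *Dusp5*, *Dusp7* and *Dusp16*, where 19.1% of all tested genes passed. In the same 4 genes the libraries of the genotypes did not overlap, a pattern seen in 50.3% of all tested genes. The median log2 fold change of the 9 genes was -0.06, beside -0.0015 over all tested genes, and 4 of the 9 were above 0 and 5 below it.

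The count of called members depended on the test. DESeq2 called 1 of them, *Dusp7*, where it called 2.90% of the genes it tested, and the edgeR exact test called *Dusp7* and *Dusp16*, where it called 8.42%. At an adjusted p under 0.1 in the quasi-likelihood test, *Dusp7* and *Dusp16* passed, with 7.78% of all genes. Without WT 1 the number was 0 and without WT 2 it was 1, where 3.62% and 1.39% of all tested genes were called. Without cKO 1 it was 3 (*Dusp6*, *Dusp7* and *Dusp10*) and without cKO 2 it was 3 (*Dusp2*, *Dusp7* and *Dusp16*), where the shares of all genes were 11.7% and 13.8%.

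**Figure D1:**
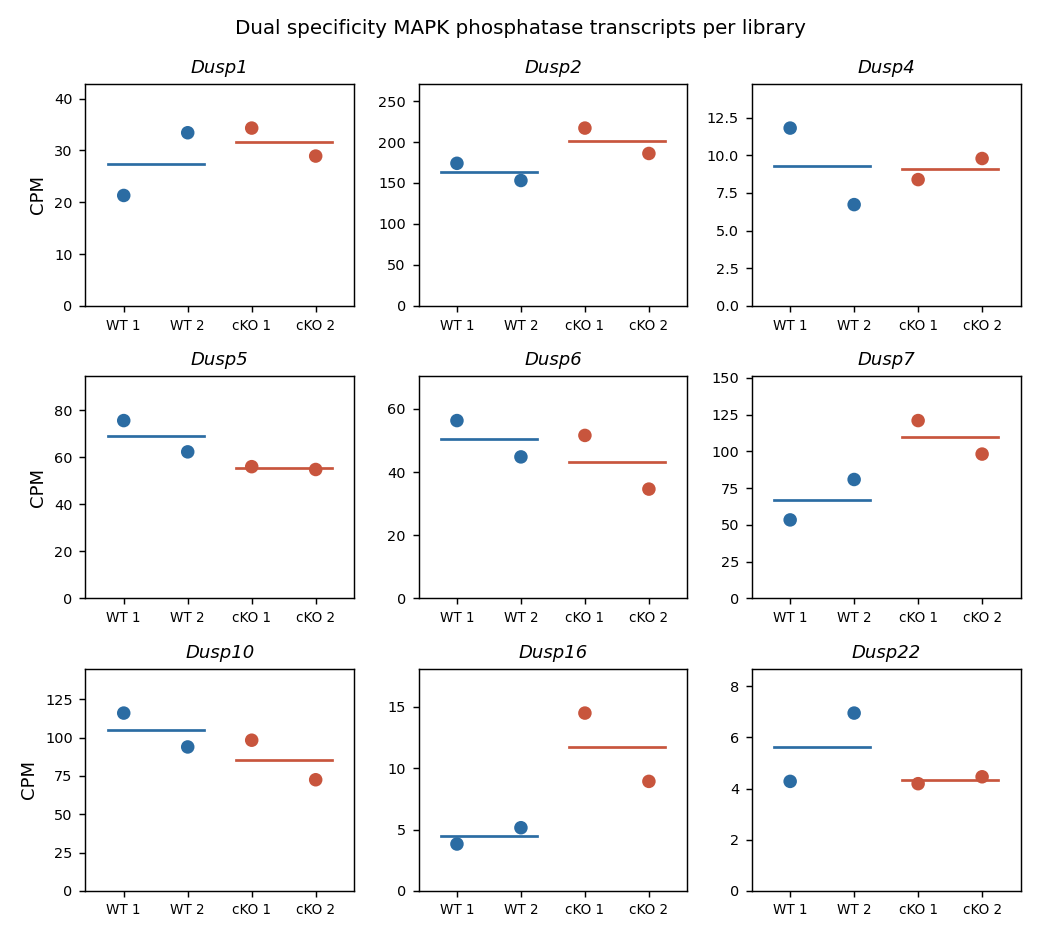
Expression of the 9 phosphatase genes in CPM (library-scaled counts, linear axes from 0), 1 point per library, WT in blue and cKO in red, with a line at the mean of each genotype (n = 2). The genotypes do not overlap for *Dusp2*, *Dusp5*, *Dusp7* and *Dusp16*, and overlap for the other members.

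*Dusp16*, whose product dephosphorylates JNK and p38, was the member with the highest log2 fold change. It had 25 and 23 counts in WT 1 and WT 2 and 76 and 42 counts in cKO 1 and cKO 2, or 3.82, 5.15, 14.5 and 8.93 CPM. Both cKO libraries lay above both WT libraries, and cKO 1 stood highest. The mean was 4.49 ± 0.940 CPM (SD, n = 2) in WT and 11.7 ± 3.93 CPM (SD, n = 2) in cKO, a fold of 2.66 with a 95% interval of 1.57 to 4.5. The estimated log2 fold change, cKO over WT, was 1.41 ± 0.33 (SE), with an edgeR adjusted p = 0.0528, just outside the threshold. Over the alternatives its adjusted p ran from 5.71e-05 to 0.141 and its log2 fold change from 1.01 to 1.72. It passed with the exact test, without a low-count filter, with a filter of CPM above 1 in 2 libraries (adjusted p = 0.0486) without cKO 2 (adjusted p = 0.000109) and under a replicate block (adjusted p = 0.00802).

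*Dusp7*, of the cytoplasmic ERK-selective pair, had 53.4 and 80.9 CPM in WT 1 and WT 2 and 121 and 98.2 CPM in cKO 1 and cKO 2. The genotypes did not overlap, although the WT libraries differed from each other more than WT 2 differed from cKO 2. The mean was 67.1 ± 19.4 CPM (SD, n = 2) in WT and 110 ± 16.4 CPM (SD, n = 2) in cKO. Its fitted difference on the log2 scale was 0.72 ± 0.19 (SE) (edgeR adjusted p = 0.0742), a fold of 1.65 with a 95% interval of 1.22 to 2.23. Leaving out WT 1 lowered the log2 fold change to 0.45, with an adjusted p of 0.307, the highest of its alternatives. Without WT 2, cKO 1 or cKO 2 the gene passed the threshold, at adjusted p values of 0.0337, 0.0333 and 1.33e-05. It also passed in DESeq2 (adjusted p = 0.0326), with the exact test (0.0134), without a low-count filter (1.42e-05) and under a replicate block (0.00301).

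Summed markers of B cells and of myeloid cells moved with these genes. The summed level of 9 B cell markers was 39.7 and 47.0 CPM in WT 1 and WT 2 and 196 and 77.6 CPM in cKO 1 and cKO 2. For 8 myeloid markers the sums were 28.3, 34.5, 103 and 60.5 CPM in the same order. *Dusp7*, *Dusp16* and both sums therefore ranked the libraries alike, with cKO 1 highest and WT 1 lowest. *Cd74* alone had 22.9, 27.1, 115 and 46.8 CPM in WT 1, WT 2, cKO 1 and cKO 2. Single markers did not all keep the order. *Cd79b* had 4.89 CPM in cKO 2, below 5.66 and 6.05 CPM in WT. *Csf1r* had 18.9 CPM in cKO 2, below 19.9 CPM in WT 2. *Cd22* and *Cybb* were highest in cKO 2. Both cKO libraries lay above both WT libraries in 4 of 5 tested B cell and 5 of 7 tested myeloid markers. In 50.3% of all tested genes the genotypes did not overlap. Of the B cell markers 5 were tested and 2 called, *Pax5* and *Cd74*, and of the myeloid markers 7 were tested and 4 called, *Lyz2*, *Cybb*, *S100a9* and *Ltf*, each of them higher in cKO. The myeloid marker *Itgam* lay the other way, at 2.14 and 2.24 CPM in WT against 1.33 and 1.06 CPM in cKO (edgeR adjusted p = 0.374). The sums of NK cell, CD8 and erythroid genes did not follow the order of *Dusp7* and *Dusp16*. In WT 1, WT 2, cKO 1 and cKO 2 they were 7.19, 4.71, 3.81 and 1.27 CPM for NK cell markers. They were 47.8, 58.5, 34.3 and 26.8 CPM for CD8 genes and 93, 280, 8.77 and 203 CPM for erythroid markers. The summed RAF and MAP3 kinase genes did follow it, at 1600, 1610, 1720 and 1670 CPM. *S100a8*, *S100a9* and *Ltf* were at 0 counts in WT 1 and *Ebf1* was at 0 counts in cKO 2. Summed heat shock genes were 456 and 394 CPM in WT and 970 and 908 CPM in cKO, with 5 of the 5 tested genes called higher. Summed Treg markers were 519 and 437 CPM in WT and 920 and 1150 CPM in cKO. Of these sums *Foxp3* gave 142 and 121 CPM in WT and 405 and 547 CPM in cKO. Of 9 tested Treg markers 5 were called higher, while *Ikzf2* overlapped, at 77.4 and 64.1 CPM in WT against 70.3 and 146 CPM in cKO. The part of these lists in the values of *Dusp7* and *Dusp16* was not tested. In bulk RNA a change in the number of cells of a type and a change in RNA per cell cannot be told apart.

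**Figure D2:**
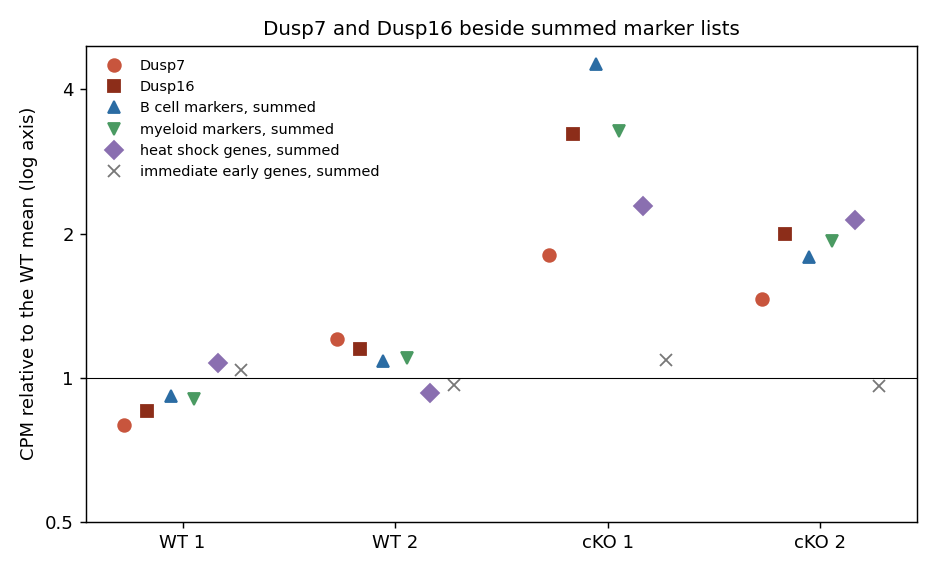
Levels of *Dusp7*, *Dusp16* and summed gene lists in each library, relative to the mean of the WT libraries, on a log axis. *Dusp7*, *Dusp16* and the B cell, myeloid and heat shock sums are each highest in cKO 1 and next in cKO 2. The immediate early sum stays between 2000 and 2270 CPM.

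The remaining JNK and p38 phosphatase, *Dusp10*, had 116 and 93.9 CPM in WT 1 and WT 2 and 98.3 and 72.5 CPM in cKO 1 and cKO 2. WT 2 lay below cKO 1, so the genotypes overlapped. On the log2 scale the fitted difference was -0.30 ± 0.16 (SE) (edgeR adjusted p = 0.361), and the interval of the fold was 0.628 to 1.05. Without cKO 1 the value was -0.55 and passed, at an adjusted p of 0.0124, the lowest of its alternatives, which reached 0.910.

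*Dusp6*, the other cytoplasmic ERK phosphatase and a classic readout of ERK activity, had 56.3 and 44.8 CPM in WT 1 and WT 2 and 51.6 and 34.6 CPM in cKO 1 and cKO 2. The genotypes overlapped, and the cKO libraries differed from each other more than the WT libraries did. The estimated log2 fold change, cKO over WT, was -0.23 ± 0.20 (SE) (edgeR adjusted p = 0.582), with an interval of the fold of 0.625 to 1.16. The direction depended on the cKO libraries. Without cKO 1 the value was -0.56 and passed, at an adjusted p of 0.0320, and without cKO 2 it was 0.020, at 0.956, within a range over its alternatives of 0.0320 to 1.

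Among the nuclear, inducible members, *Dusp2*, which is induced in activated T cells, had the highest level per kilobase of exon. It had 174 and 153 CPM in WT 1 and WT 2 and 217 and 186 CPM in cKO 1 and cKO 2. Both cKO libraries lay above both WT libraries. Its fitted difference on the log2 scale was 0.30 ± 0.12 (SE), a fold of 1.23 with an interval of 1.03 to 1.48 (edgeR adjusted p = 0.200). It passed only without cKO 2, with 0.41 and an adjusted p of 0.00203, and its adjusted p reached 0.812 elsewhere.

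*Dusp5*, a nuclear phosphatase selective for ERK, lay the other way. It had 75.6 and 62.3 CPM in WT 1 and WT 2 and 56.0 and 54.8 CPM in cKO 1 and cKO 2, so that both cKO libraries were below both WT libraries. On the log2 scale the fitted difference was -0.32 ± 0.13 (SE), a fold of 0.801 with an interval of 0.653 to 0.983 (edgeR adjusted p = 0.227). No alternative moved it past the threshold, with adjusted p values from 0.130 to 0.876. Of its 2473 exonic bases, 22.1% overlap an exon of *AC137853.2* on the opposite strand. The strand setting of the counting is not stated, and reads of the overlapping genes cannot be told apart without strand.

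*Dusp1*, an immediate early gene whose product acts on p38, JNK and ERK, had 21.3 and 33.4 CPM in WT 1 and WT 2 and 34.3 and 28.9 CPM in cKO 1 and cKO 2. The estimated log2 fold change, cKO over WT, was 0.24 ± 0.22 (SE) (edgeR adjusted p = 0.611), smaller than the difference of 0.64 between the WT libraries on the same scale. Without WT 1 the sign turned, to -0.071. *Dusp4*, a nuclear relative of *Dusp1*, had 11.8 and 6.72 CPM in WT 1 and WT 2 and 8.38 and 9.78 CPM in cKO 1 and cKO 2, with both cKO libraries between the WT libraries. Its fitted difference on the log2 scale was -0.06 ± 0.31 (SE) (edgeR adjusted p = 0.939), and the interval of the fold, 0.591 to 1.55, covers changes in both directions. Without WT 1 it was 0.44 and without cKO 1 it was 0.031.

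*Dusp22*, which dephosphorylates the kinase LCK in T cells, had low counts, 28, 31, 22 and 21 in WT 1, WT 2, cKO 1 and cKO 2. These are 4.28, 6.95, 4.19 and 4.46 CPM, and WT 1 lies between the cKO libraries. On the log2 scale the fitted difference was -0.34 ± 0.36 (SE) (edgeR adjusted p = 0.666) and became 0.01 without WT 2. The interval of its fold, 0.449 to 1.39, was the widest of the 9 on a log scale.

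**Figure D3:**
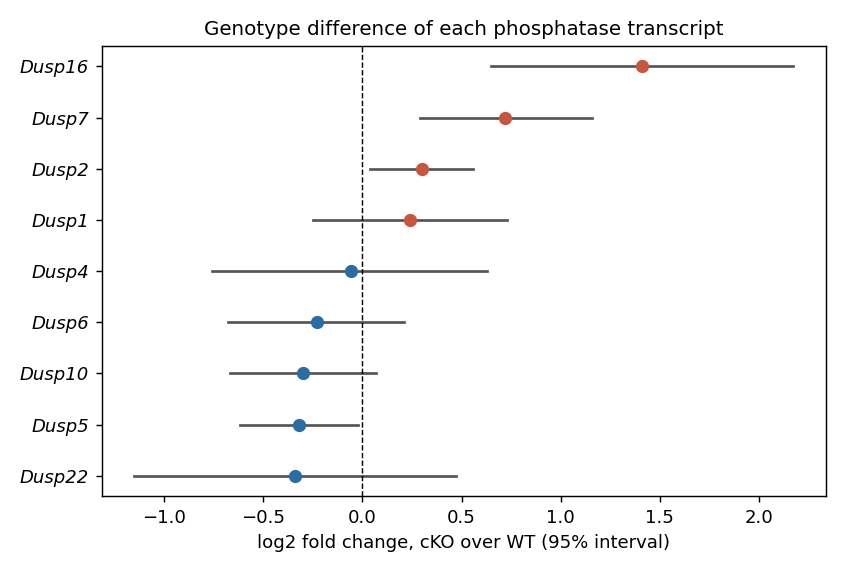
Log2 fold change, cKO over WT, of each phosphatase gene from the edgeR quasi-likelihood fit, with 95% intervals as bars and the point red above 0 and blue below it. Intervals of *Dusp16*, *Dusp7*, *Dusp2* and *Dusp5* do not cross 0, and no phosphatase gene passed after adjustment over all tested genes.

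Levels of the members were compared per kilobase of exon, since a longer transcript collects more reads. *Dusp2* led with 91.0 ± 13.4 CPM per kb (SD over the 4 libraries), followed by *Dusp10* with 31.3 ± 5.91, *Dusp7* with 26.4 ± 8.54 and *Dusp5* with 25.1 ± 3.84 CPM per kb. *Dusp10* and *Dusp7* overlapped over the libraries, as did *Dusp7* and *Dusp5*, and their order differed by label. *Dusp7*, at 15.9 and 24.1 CPM per kb in WT 1 and WT 2, was below both other genes in each WT library, and at 36.2 and 29.3 CPM per kb in cKO 1 and cKO 2 it was above both in each cKO library. *Dusp6* with 15.0 ± 3.0, *Dusp1* with 8.90 ± 1.80 and *Dusp4* with 3.35 ± 0.782 CPM per kb followed, each below the lowest library of the gene before it. *Dusp16* with 1.04 ± 0.612 and *Dusp22* with 0.973 ± 0.259 CPM per kb stood last and overlapped. *Dusp16* was the lower of them in both WT libraries, at 0.49 and 0.661 against 0.838 and 1.36 CPM per kb, and the higher in both cKO libraries, at 1.86 and 1.14 against 0.821 and 0.874 CPM per kb. The lengths are unions of all annotated exons, which understates the level per kb of genes with rarely used exons. *Dusp2* made up 31.4% to 37.3% of the summed CPM of the 9 genes. That sum was 516 and 487 CPM in WT 1 and WT 2 and 606 and 498 CPM in cKO 1 and cKO 2, with cKO 2 between the WT libraries.

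The spread between replicates was wide for these genes. Of 18 SDs of log2 CPM, 1 per gene and genotype, 16 were above 0.119, the median over all tested genes. The largest gap between WT libraries was that of *Dusp4*, lower in WT 2 than in WT 1 by a log2 value of -0.78, and the largest between cKO libraries was that of *Dusp16*, at -0.68. *Dusp2*, *Dusp5*, *Dusp6* and *Dusp10* were lower in WT 2 than in WT 1 and lower in cKO 2 than in cKO 1. That is 4 of 9 genes, beside 27.6% of all tested genes. Of 16 tested immediate early genes, 10 had the same pattern.

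For each member the gene with the most similar profile over the 4 libraries was found among those with a mean log2 CPM of at least 4, by the root mean square difference of centred log2 CPM. *Nfkbid* was nearest to *Dusp2* (0.0127), *Prdx1* to *Dusp5* (0.0181), *Cops9* to *Dusp6* (0.0232), *2310022A10Rik* to *Dusp10* (0.0259), *Rmnd1* to *Dusp22* (0.0396), *Apobec3* to *Dusp7* (0.0541), *Elac1* to *Dusp1* (0.0596), *Faap100* to *Dusp4* (0.0836) and *Unc93b1* to *Dusp16* (0.11). With 4 libraries and about 8020 candidates, a near match is readily found and is given as a description. *Unc93b1* had 9.79 and 13.0 CPM in WT 1 and WT 2 and 32.4 and 25.1 CPM in cKO 1 and cKO 2.

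The pathway around the phosphatases was followed in 8 lists of 105 genes, of which 80 were tested. Among these, 2 were called, both higher in cKO, which is no larger a share than the 4.30% of all tested genes, with a median log2 fold change of 0.10 over the 80. *Mapk11*, which encodes the beta isoform of p38, rose from 41.6 and 34.3 CPM in WT to 63.6 and 59.9 CPM in cKO (log2 fold change 0.70, edgeR adjusted p = 0.0263). *Sos2*, which encodes an exchange factor that loads Ras with GTP, rose from 50.6 and 52.2 CPM to 88.0 and 73.1 CPM (log2 fold change 0.65, edgeR adjusted p = 0.0267). The number called in the 8 lists was 0 without WT 2 and 16 without cKO 2, where 1.39% and 13.8% of all tested genes were called. DESeq2 called 1 and the edgeR exact test 5 of these genes, where they called 2.90% and 8.42% of all genes tested.

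In the other 6 lists no gene was called by edgeR. At an unadjusted p under 0.05 there were 0 MAP kinase kinases, 2 RAF and MAP3 kinases, 2 MAPK-activated kinases, 1 other inhibitor, 6 immediate early genes and 1 other dual specificity phosphatase gene, beside 19.1% of all tested genes. None of the 7 MAP kinase kinases passed, with a median log2 fold change of -0.01, and *Map2k2*, which phosphorylates ERK, had 99.6 and 100 CPM in WT and 108 and 94.0 CPM in cKO. *Map2k7*, which phosphorylates JNK, had 81.1, 80.7, 84.2 and 66.3 CPM in the order WT 1, WT 2, cKO 1, cKO 2. Among 13 tested RAF and MAP3 kinases the median was 0.06, with *Map3k12* at 284, 276, 279 and 276 CPM in WT 1, WT 2, cKO 1 and cKO 2 and *Map3k1*, an upstream kinase of JNK, at 253, 247, 312 and 294 CPM. The 9 tested MAPK-activated kinases had a median of 0.14, and *Mknk2*, a kinase of the translation factor eIF4E, had 498, 500, 610 and 498 CPM. *Rps6ka1*, an ERK-activated kinase, had 307, 294, 279 and 260 CPM. Of 6 tested other inhibitors of the ERK pathway the median was 0.11, and *Ptpn7*, a tyrosine phosphatase of ERK in lymphocytes, had 242, 215, 249 and 267 CPM. *Pea15a*, whose product holds ERK in the cytoplasm, had 78.5, 78.6, 102 and 89.1 CPM.

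The immediate early genes, which are transcribed on ERK and p38 activation, had a median log2 fold change of 0.11 over 16 tested, with 9 higher, 7 lower and none called. *Jund* had 352 and 378 CPM in WT and 285 and 323 CPM in cKO (log2 fold change -0.26, edgeR adjusted p = 0.221), and *Btg2* had 278, 269, 321 and 269 CPM. Their summed level was 2160 and 2010 CPM in WT 1 and WT 2 and 2270 and 2000 CPM in cKO 1 and cKO 2, with the genotypes overlapping.

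Of 17 other dual specificity phosphatase genes, 6 were tested and none was called, with a median log2 fold change of 0.25. *Dusp11*, an RNA phosphatase, had 287 and 288 CPM in WT and 283 and 334 CPM in cKO, and *Styx*, a catalytically inactive relative, had 30.1, 32.7, 21.3 and 28.9 CPM. The other 11, among them the MAP kinase phosphatase genes *Dusp8* and *Dusp9*, had 0 to 5 counts in a library. *Dusp8* had 0 counts in each library, which allows up to 0.459 to 0.672 CPM at 3 counts, for counting error only.

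**Figure D4:**
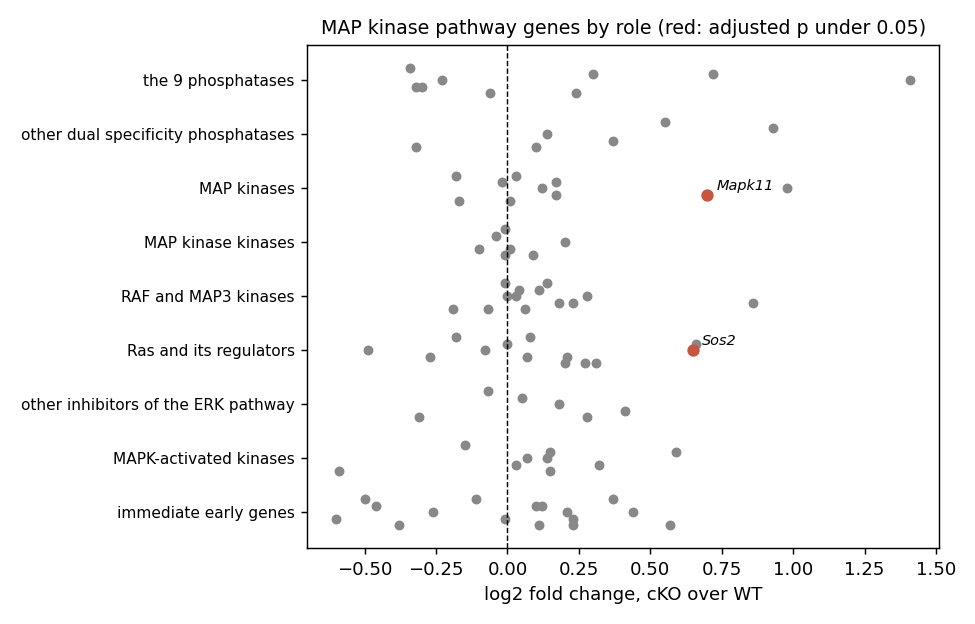
Log2 fold change, cKO over WT, of each tested gene, grouped by role in the MAP kinase pathway, with 1 point per gene and called genes in red. Only *Mapk11* and *Sos2* are called, and the phosphatases run from -0.34 for *Dusp22* to 1.41 for *Dusp16*.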

How the data were processed

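RNA of sorted splenic CD4+ T cells was sequenced as 50 bp reads in 4 libraries, grouped by genotype and replicate number from the sample titles. The authors aligned reads to mm10 with HISAT2 2.1.0 and counted them with HTSeq 0.11.1 (version per the submitters' processing notes), and deposited raw read counts per gene symbol, with no scaling. Annotation and strand setting are not given in the sources used here. HTSeq summary lines, 66.8% to 70.5% of each table's total, were left out. The libraries of a genotype differed by more than sampling noise (chi-square per degree of freedom of 3.01 in WT and 7.28 in cKO) and each was counted as a replicate. The study calls them biological replicates, but the labels do not say whether they came from separate mice, and p-values measure only the spread between these samples.

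Counts were analysed in R 4.3.3 with edgeR 4.0.16: filterByExpr (12403 genes kept), TMM scaling, and the two-sided quasi-likelihood F test with no covariate, fitted across all genes, with Benjamini-Hochberg adjustment over all of them and a threshold of 0.05. The SE is the absolute log2 fold change over the square root of F, and intervals use the moderated t distribution. Log2 CPM used a prior count of 2. With 2 libraries against 2, an exact permutation test of 1 gene cannot fall under 0.333. DESeq2 1.42.0, the exact test, RLE factors, other filters, a replicate block and leaving out each library were the alternatives. A fit without a library leaves 1 in its genotype, which is assumed to vary like the others. The procedure was tested on simulated data drawn with the same fitted dispersion trend for both genotypes. These did not carry the wider spread of the cKO libraries, so they do not test the procedure under it.

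The members and gene lists were chosen with earlier results of these data known. Named were the 9 members, genes that check the labels, the called genes of each pathway list (or its 2 most abundant), the nearest profile of each member, and markers beside a result. Positions, exon lengths and coding sequence came from GENCODE M21 (GRCm38, the assembly of mm10) and promoters from RefSeq GRCm38.p6. Plots used Python 3.11.15 with matplotlib 3.10.9.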

Additional observations from a re-analysis of the deposited data

How the results depend on the processing

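The number of members called, 0, became 1 in DESeq2 and with a filter of CPM above 1 in 2 libraries (2.90% and 4.03% of all genes called), and 2 with the exact test, without a low-count filter and at an adjusted p under 0.1 (8.42%, 5.72% and 7.78%). Leaving out 1 library gave 0 to 3 (1.39% to 13.8%). The number of pathway genes called, 2, became 1 in DESeq2, 5 with the exact test, 7 without a low-count filter and 4 at an adjusted p under 0.1. The shares of all genes were 2.90%, 8.42%, 5.72% and 7.78% in the same order. Leaving out 1 library gave 0 to 16. RLE factors changed neither number. For each of these the cause was not tested. The median log2 fold change of the members, -0.06, lay between -0.07 and 0.03 in every alternative run.

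Of 90 values of single members under the alternatives, 70 stayed on their side of the threshold with their direction, 15 passed the threshold and 5 reversed, each of these when a library was left out. Over those fits *Dusp1* ran from -0.071 to 0.57, *Dusp4* from -0.38 to 0.44, *Dusp6* from -0.56 to 0.020 and *Dusp22* from -0.67 to 0.01. *Dusp2*, *Dusp5*, *Dusp7*, *Dusp10* and *Dusp16* kept their direction in all 10 alternatives. For *Dusp2*, *Dusp5*, *Dusp7* and *Dusp16* the libraries do not overlap, which fixes the direction when a library is left out.

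Same-numbered libraries share only a number, and the correlation of their deviations over genes was 0.0642. Under a replicate block, 2 members, *Dusp7* and *Dusp16*, and 7 pathway genes were called, with 9.39% of all genes. Counts of 21 to 76 in *Dusp16* and *Dusp22* limit the precision of their values.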

Other observations

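Ratios of members within a library do not depend on the scaling of that library. They were chosen after the values had been seen, so no test is given. The ratio of *Dusp7* to *Dusp6*, the cytoplasmic ERK phosphatase genes, in CPM was 0.948 and 1.80 for WT 1 and WT 2 and 2.35 and 2.83 for cKO 1 and cKO 2. Per kilobase of exon, *Dusp6* was above *Dusp7* in WT 1 alone, at 18.0 against 15.9 CPM per kb. The ratio of *Dusp16* to *Dusp10*, the JNK and p38 phosphatase genes, was 0.0329 and 0.0549 in WT 1 and WT 2 and 0.147 and 0.123 in cKO 1 and cKO 2. That of *Dusp2* to *Dusp5* was 2.30 and 2.45 for WT against 3.87 and 3.39 for cKO. Each ratio sets a member with a positive log2 fold change over one with a negative one. *Dusp6* and *Dusp10* themselves overlapped between the genotypes. *Dusp7* made up 10.3% and 16.6% of the summed CPM of the 9 genes in WT against 20% and 19.7% in the cKO pair.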
